A study of Homo sapiens with 18 samples.

Results

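The transcripts of 9 genes were followed in PANC-1 cells, a human pancreatic ductal adenocarcinoma line, after PKR was reduced by RNA interference or treated with its inhibitor C16. The genes were HMOX1, NQO1, GCLM, GCLC, TXNRD1, SRXN1, OSGIN1, NFE2L2 and KEAP1, 9 of the 26485 genes listed, matched by gene symbol in both deposited tables. The first 7 are genes that the transcription factor NRF2 switches on, NFE2L2 encodes NRF2, and KEAP1 encodes the protein that holds NRF2 down. HMOX1 was selected on its own values, because it passed the study's thresholds with both PKR siRNAs and at the 800 nM dose of C16, and the other 8 were added to see whether its rise came with other NRF2 targets or alone. In these 3 comparisons the 9 genes are therefore given with no p-value, and which of them passed the thresholds is a description.

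PANC-1 cells received one of 3 siRNAs, namely PKR siRNA 1, PKR siRNA 2 and a control siRNA, or one of 3 treatments, namely DMSO, C16 at 400 nM and C16 at 800 nM, and RNA was taken 72 h later. Each of the 6 groups held 3 libraries, the siRNA groups in one deposited table and the C16 groups in another. The tables were normalized separately, so values were compared only within a table, and kind of treatment and table cannot be told apart. All groups are a single cell line, the knockdown is transient and covers a single time point, DMSO is the solvent of C16, and the 400 nM dose is known from the sample labels alone. Nothing in the sources used here says whether the 3 libraries of a group came from separate cultures, so the SDs and p-values measure the spread between these libraries, which may be technical.

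NRF2 is a transcription factor that is made all the time and destroyed all the time. KEAP1, a cysteine-rich adaptor of a CUL3 ubiquitin ligase, binds NRF2 and marks it for the proteasome, and reactive oxygen or electrophiles that modify KEAP1 let NRF2 reach the nucleus. There it pairs with a small MAF protein (MAFF, MAFG or MAFK) on the antioxidant response element and switches on enzymes of glutathione synthesis, the thioredoxin system, quinone reduction, NADPH supply and iron storage. HMOX1, the inducible heme oxygenase that opens the heme ring to give biliverdin, carbon monoxide and iron, is a classical NRF2 target, but its gene is also held silent by BACH1 and can be driven by AP-1 proteins, ATF4, HSF1 and HIF1A. NRF2 is regulated mostly at the level of its protein, which was not measured here, so the transcripts of its targets are the readout.

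Because the targets share the antioxidant response element, its core was searched as TGACNNNGC (N is any base) on both strands of the RefSeq promoter windows of GRCh38.p14, which run from 250 bases before a start site to 50 after it. Windows were matched for 8 of the 9 genes, all but HMOX1. Of their 11 windows, 4 held the core, in GCLM, TXNRD1 and KEAP1, beside 13.3% of all 35116 windows of this length. The 6 matches are printed because they lie near the start of genes described here. They are read on the gene's strand with the core in capitals, which is reverse-complemented where it lies on the opposite strand.
GCLM, chr1:93909446-93909474 (minus strand): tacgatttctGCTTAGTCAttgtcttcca
TXNRD1, chr12:104215670-104215698 (plus strand): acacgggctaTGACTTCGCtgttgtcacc
TXNRD1, chr12:104215761-104215789 (plus strand): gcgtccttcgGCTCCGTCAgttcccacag
TXNRD1, chr12:104286920-104286948 (plus strand): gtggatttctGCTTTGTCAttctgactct
KEAP1, chr19:10502807-10502835 (minus strand): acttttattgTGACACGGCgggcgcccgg
KEAP1, chr19:10502784-10502812 (minus strand): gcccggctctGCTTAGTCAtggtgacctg
In the annotation of the deposited tables the GCLM match, the last TXNRD1 match and the second KEAP1 match overlapped an exon. The core of the second TXNRD1 match began at -8 bases from the start site and reached an exon only at its end. The first KEAP1 match lay in an intron, and the first TXNRD1 match outside the gene. None of the 6 held an AP-1 site (TGACTCA on either strand). A match is a string of letters and not a measured binding site, and elements farther from a start site were not searched.

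Depth on genes was 1512940 to 1873906 reads per library for the siRNAs and 894145 to 1474308 for C16. EIF2AK2, the gene of PKR, averaged 97.4 ± 5.21 normalized counts in the control siRNA group and fell to 11.1 ± 2.19 (PKR siRNA 1) and 8.65 ± 0.73 (PKR siRNA 2), with n = 3 and SDs throughout, by log2 fold changes of -3.04 and -3.35 (adjusted p = 4.69e-18 and 2.58e-20 by limma). It stood at 49.8 ± 4.2 with DMSO, 42.5 ± 3.26 with 400 nM and 49.9 ± 1.38 with 800 nM C16. Epithelial keratins were present in all libraries, PTPRC (leukocytes) and DCN (fibroblasts) were at 0 in all 18, and PECAM1 (endothelium) had at most 1 read. The summed level of the 6 epithelial markers ranged from 5357 to 5451 with control siRNA, 3052 to 3280 with PKR siRNA 1, 9586 to 10230 with PKR siRNA 2, 7171 to 7573 with DMSO, 6034 to 6545 with 400 nM and 5173 to 5685 with 800 nM C16. KRT8, KRT18 and KRT19 carried this sum, although KRT18 averaged 1440, 1505 and 1444 with DMSO, 400 nM and 800 nM C16. CDH1 followed the sum in the siRNA table, at 18.7 (control siRNA), 11.7 (PKR siRNA 1) and 56.1 (PKR siRNA 2). Single markers went the other way with PKR siRNA 2 and with C16. EPCAM averaged 102.6 (control siRNA), 12.3 (PKR siRNA 1) and 10.7 (PKR siRNA 2), KRT7 averaged 18.2, 11.4 and 4.64 in that order, and EPCAM averaged 17.8 with DMSO, 25.6 with 400 nM and 30.3 with 800 nM C16. The 3 fibroblast markers, of which 2 were above 0, summed, in the order of the epithelial sums, to 84.2 to 113.9, 24.5 to 29.99, 118 to 134, 148 to 184, 119 to 179 and 78.2 to 116. The part of these shifts in the results was not tested.

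HMOX1 stood higher in every treated library than in any control library of its table. It lies at chr22:35381067-35394214 on the plus strand of hg38. The normalized counts (reads scaled by the authors to a common library size) were 198, 157 and 191.5 (control siRNA), 479, 517 and 419 (PKR siRNA 1) and 523, 493 and 559 (PKR siRNA 2). The means of 182 ± 22.2, 471.5 ± 49.5 and 525 ± 32.7 (SD, n = 3 each) gave log2 fold changes against control siRNA of 1.37 (standard error, SE, 0.08) and 1.53 (0.08). The thresholds on which HMOX1 was chosen, and which mark a call throughout, are an adjusted p under 0.05 and a fold over 1.5. All fold changes here are differences of log2 (normalized count + 1) from limma. They describe RNA of the whole culture, in which fewer cells of a type and less RNA per cell cannot be told apart. The values of both siRNAs overlapped, and their difference of 0.16 (95% interval 0.00 to 0.31) missed the threshold (adjusted p = 0.077 by limma).

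With C16, HMOX1 was at 82.6, 94.3 and 81.5 normalized counts with DMSO, 212, 196 and 196 with 400 nM and 149, 136.5 and 156.5 with 800 nM. The 3 groups did not overlap, and the level at 400 nM was above that at 800 nM. The log2 fold change against DMSO was 1.22 (SE 0.11) at 400 nM, with an adjusted p of 3.75e-14 by limma, and 0.77 (0.11) at 800 nM. The 400 nM comparison shares its DMSO libraries with the 800 nM comparison on which HMOX1 was selected. Between the doses HMOX1 was lower at 800 nM by a log2 difference of -0.45 (interval -0.66 to -0.23, adjusted p = 0.0025 by limma), a fold under 1.5.

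**Figure D1:**
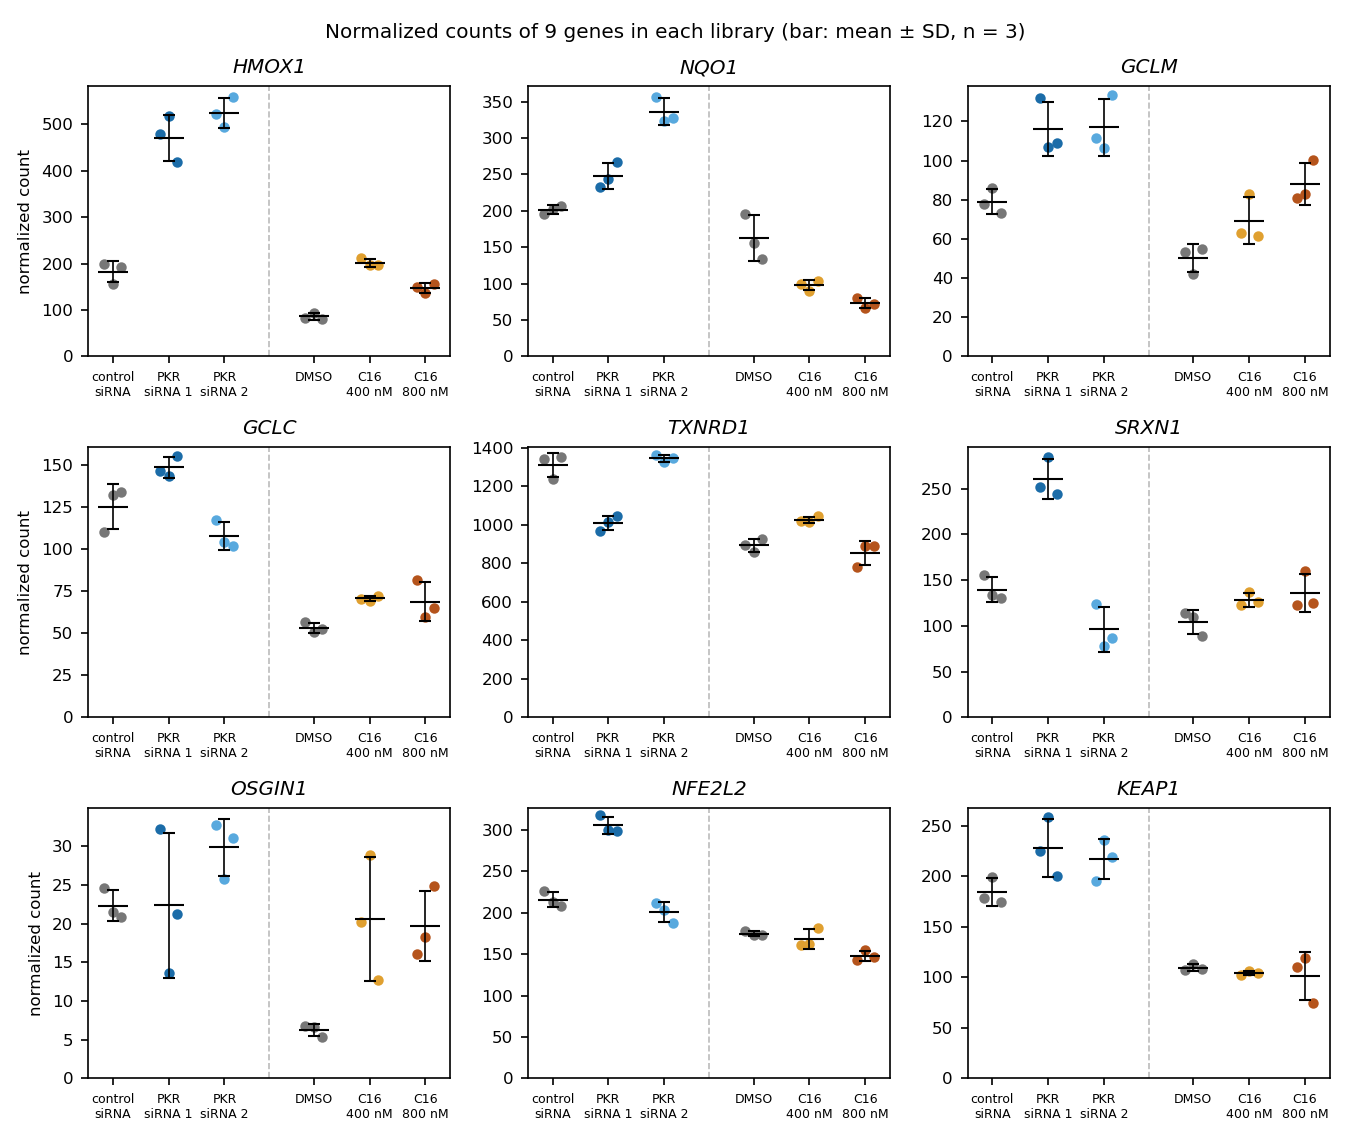
Normalized counts of the 9 genes in each of the 18 libraries, with 1 panel per gene, 1 point per library, and bars at the mean ± SD (n = 3); the dashed line parts the siRNA table from the C16 table, which are not on a common scale. HMOX1 is above its controls in all treated groups, while NQO1 is highest with PKR siRNA 2 (336 ± 18.1) and lowest with 800 nM C16 (73.4 ± 6.88), and SRXN1 is high with PKR siRNA 1 alone among the siRNA groups (260 ± 21.6).

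NQO1 encodes a quinone reductase that spares cells the radical step of quinone cycling, and its transcript is a common readout of NRF2 activity. The gene, at chr16:69709401-69726668 on the minus strand, moved in opposite directions in the siRNA and C16 tables. Its normalized counts were 195, 203 and 207 (control siRNA), 232, 243 and 267 (PKR siRNA 1) and 357, 324 and 328 (PKR siRNA 2), so that the 3 groups did not overlap. The log2 fold changes were 0.29 (SE 0.08) with PKR siRNA 1, under the fold threshold, and 0.73 (0.08) with PKR siRNA 2, past both thresholds. PKR siRNA 2 exceeded PKR siRNA 1 by 0.44 (adjusted p = 2.86e-06 by limma), a fold under 1.5.

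In the C16 table NQO1 read 196, 156 and 134 normalized counts with DMSO, 99.97, 89.95 and 103 with 400 nM and 80.7, 67.0 and 72.5 with 800 nM. Every C16 library was below every DMSO library. NQO1 fell with 400 nM by a log2 fold change of -0.71 (SE 0.13, adjusted p = 1.08e-05 by limma), and its fold change at 800 nM was -1.12 (0.13). The spread was widest with DMSO, and without DMSO replicate 1, the highest of the 3, the change at 400 nM came to -0.56 and no longer passed the fold threshold. The 800 nM group was lower than the 400 nM group by -0.41 (adjusted p = 0.020 by limma), again a fold under 1.5.

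GCLM and GCLC are the modifier and catalytic subunits of glutamate-cysteine ligase, the rate-limiting enzyme of glutathione synthesis. GCLM (chr1:93885200-93909598, minus strand), whose promoter match is printed above, was above its controls in every treated library, as was HMOX1 and no other member. It read 78.0, 85.9 and 73.0 normalized counts (control siRNA), 132, 107 and 109 (PKR siRNA 1) and 111, 106 and 133.5 (PKR siRNA 2). The log2 fold changes of 0.55 (SE 0.12) and 0.56 (0.12) lay just under the fold threshold of 1.5 (folds 1.46 and 1.47). That limit was passed by edgeR (0.59) and DESeq2 (0.59) with PKR siRNA 2, and by limma without PKR siRNA 1 replicate 2 (0.60) or 3 (0.59), without control siRNA replicate 2 (0.61 and 0.62), and without PKR siRNA 2 replicate 1 (0.59) or 2 (0.62).

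With C16, GCLM read 53.4, 41.9 and 54.8 normalized counts with DMSO, 62.8, 83.0 and 61.7 with 400 nM and 80.7, 82.9 and 100.2 with 800 nM. Its log2 fold change was 0.46 (SE 0.15, adjusted p = 0.019 by limma) at 400 nM, under the fold threshold, and 0.80 (0.15) at 800 nM, past it. The values of the doses overlapped, and their difference of 0.35 (interval 0.05 to 0.65) missed the threshold (adjusted p = 0.11 by limma).

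GCLC (chr6:53497341-53545129, minus strand) passed the thresholds in no comparison. With the siRNAs it read 110, 132 and 134 normalized counts (control), 147, 143 and 155 (PKR siRNA 1) and 117, 104 and 102 (PKR siRNA 2), for log2 fold changes of 0.25 (SE 0.11) and -0.21 (0.11). The PKR siRNA 1 libraries were all above the control, and those of PKR siRNA 2 overlapped it. The difference between the siRNAs was -0.46 (adjusted p = 0.000198 by limma), a fold under 1.5. In the C16 table it read 56.4, 50.5 and 52.5 with DMSO, 70.2, 69.2 and 72.3 with 400 nM, and 81.7, 59.7 and 64.9 with 800 nM. Its fold changes of 0.40 (0.15, adjusted p = 0.037 by limma) and 0.36 (0.15) were close to each other and under the fold threshold, although no C16 library overlapped DMSO.

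TXNRD1 and SRXN1 serve the thioredoxin system. TXNRD1, the cytosolic thioredoxin reductase that passes electrons from NADPH to thioredoxin, lies at chr12:104215779-104350307 on the plus strand and had 3 of the 6 promoter matches. Its group means ranged from 1010 ± 38.3 to 1345 ± 18.2 normalized counts among the siRNA groups and from 855 ± 64.0 to 1027 ± 15.0 among the C16 groups. With control siRNA it read 1342, 1238 and 1353, with PKR siRNA 1 it was lower at 970, 1015 and 1046, and with PKR siRNA 2 it read 1363, 1326 and 1346, within the control range but for 1 library. The log2 fold changes were -0.38 (SE 0.05) and 0.04 (0.05), and the siRNAs differed by 0.41 (adjusted p = 4.04e-11 by limma), all folds under 1.5. With C16 it read 898, 860 and 927 (DMSO), 1020, 1016 and 1044 (400 nM) and 781, 891 and 892 (800 nM), for fold changes of 0.20 (0.06, adjusted p = 0.014 by limma) and -0.07 (0.06).

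SRXN1, sulfiredoxin, which rescues peroxiredoxins whose active cysteine has been over-oxidized, lies at chr20:646624-653370 on the minus strand and moved apart between the siRNAs. It read 155, 133 and 130 normalized counts (control siRNA), 252, 285 and 244 (PKR siRNA 1) and 124, 78.3 and 86.5 (PKR siRNA 2). All libraries of PKR siRNA 1 were above and all of PKR siRNA 2 below the control libraries. The log2 fold changes were 0.90 (SE 0.11), past both thresholds, and -0.55 (0.11), under the fold threshold, which it passed without control siRNA replicate 3 (-0.60) or PKR siRNA 2 replicate 1 (-0.75). The siRNAs differed by -1.45 (interval -1.67 to -1.23, adjusted p = 1.07e-19 by limma). With C16 it read 114, 110 and 89.1 (DMSO), 122, 137 and 126 (400 nM) and 123, 160 and 125 (800 nM). The C16 groups lay above DMSO without overlap, by 0.31 (0.12, adjusted p = 0.046 by limma) and 0.38 (0.12), folds under 1.5.

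OSGIN1, an NRF2 target whose product takes part in growth inhibition and cell death under oxidative stress, was the least expressed member. It lies at chr16:83953222-83966332 on the plus strand and rested on 7 reads in each DMSO library, so its values are the least precise. With the siRNAs it read 24.6, 21.5 and 20.9 normalized counts (control), 32.2, 13.6 and 21.2 (PKR siRNA 1) and 32.8, 25.7 and 31.0 (PKR siRNA 2). Its log2 fold changes were -0.08 (SE 0.25) and 0.40 (0.25), and the siRNA 1 libraries lay on both sides of the control. The siRNAs differed by 0.48 (adjusted p = 0.091 by limma), or by 0.77 without PKR siRNA 1 replicate 1, which passed both thresholds. With C16 it read 6.80, 6.67 and 5.33 (DMSO), 20.2, 28.8 and 12.8 (400 nM) and 16.1, 18.3 and 24.8 (800 nM). It rose with 400 nM by 1.51 (0.31, adjusted p = 0.00016 by limma), and its fold change at 800 nM was 1.498 (0.31), the largest of any member at that dose.

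NFE2L2 and KEAP1, the regulators themselves, stayed under the fold threshold against the control of their table in all 4 treatments. NFE2L2 (chr2:177230303-177265131, minus strand) read 226, 213 and 209 normalized counts (control siRNA), 318, 300 and 299 (PKR siRNA 1) and 212, 203 and 188 (PKR siRNA 2). All PKR siRNA 1 libraries stood above the other 6. The log2 fold changes were 0.50 (SE 0.08) and -0.10 (0.08), both under the fold threshold. The siRNAs differed by -0.60 (interval -0.77 to -0.44, adjusted p = 1.98e-09 by limma), just past the fold threshold, which was missed without PKR siRNA 1 replicate 1 (-0.58) or PKR siRNA 2 replicate 3 (-0.56). With C16 it read 178, 173 and 174 (DMSO), 161, 163 and 182 (400 nM) and 143, 155 and 146 (800 nM), for fold changes of -0.06 (0.10, adjusted p = 0.72 by limma) and -0.24 (0.10).

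KEAP1 (chr19:10486120-10503378, minus strand) read 179, 200 and 174 normalized counts (control siRNA), 225.5, 258.5 and 201 (PKR siRNA 1) and 196, 236 and 219 (PKR siRNA 2). The PKR siRNA 1 libraries were all above the control libraries, the lowest by less than 1 normalized count, and those of PKR siRNA 2 overlapped them. The log2 fold changes were 0.30 (SE 0.09) and 0.23 (0.09), folds under 1.5. With C16 it read 107, 113 and 108 (DMSO), 102, 106 and 104 (400 nM) and 110, 119 and 74.4 (800 nM). Its fold changes were -0.07 (0.13, adjusted p = 0.73 by limma) and -0.14 (0.13), and the second rested on the single low library, without which it was 0.07.

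**Figure D2:**
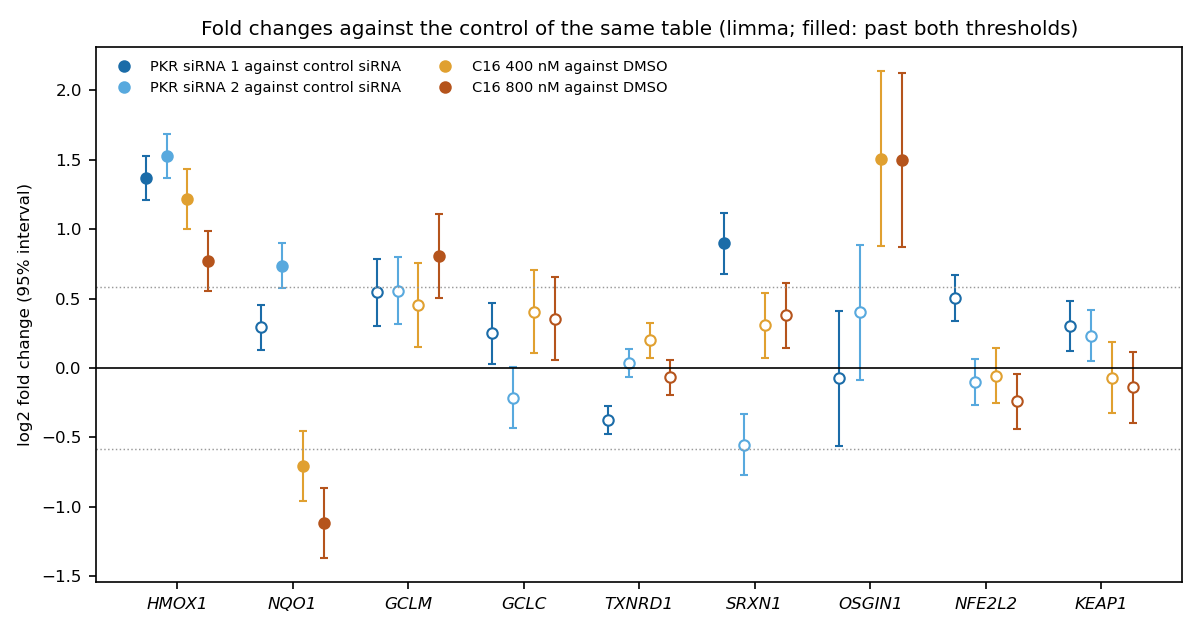
Log2 fold changes of the 9 genes against the control of their own table, by limma, with 95% intervals; filled points passed an adjusted p under 0.05 and a fold over 1.5, and dotted lines mark that fold. HMOX1 is filled in all 4 comparisons (0.77 to 1.53), in 3 of them by its selection, NQO1 is filled upward with PKR siRNA 2 (0.73) and downward with both C16 doses (-0.71 and -1.12), and GCLC, TXNRD1, NFE2L2 and KEAP1 have no filled point.

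All 9 members passed the filter on low values in both tables, OSGIN1 in the C16 table only through the C16 groups where it is high. With PKR siRNA 1, 2 of the 9 were called up, HMOX1 and SRXN1, where 8.53% of all 10593 genes tested were called up and 12.6% down. With PKR siRNA 2, 2 were called up, HMOX1 and NQO1, beside a background of 10.8% up and 12.8% down. Without PKR siRNA 2 replicate 1 there were 4 calls, GCLM up and SRXN1 down being added. With 800 nM C16, 3 were called up, HMOX1, GCLM and OSGIN1, and NQO1 was called down, beside 11.6% up and 14.1% down of 9963 genes. HMOX1 was selected on these 3 comparisons, so nothing is read from the counts. The median log2 fold change of the 9 was 0.30, 0.23 and 0.36, where that of all genes was -0.007, -0.011 and 0.002. These medians include HMOX1, so they too are a description and nothing is read from them.

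In the comparisons on which HMOX1 was not selected, which share libraries with the others, the members behaved as follows by limma. With 400 nM C16, HMOX1 and OSGIN1 rose and NQO1 fell, 2 up and 1 down of 9, beside 7.08% of genes up and 5.45% down, and 4 more (GCLM, GCLC, TXNRD1 and SRXN1) had an adjusted p under 0.05 with a positive fold change under 1.5. OSGIN1 was tested there only through the C16 groups where it is high. Between PKR siRNA 2 and PKR siRNA 1, SRXN1 and NFE2L2 were lower with PKR siRNA 2, 2 down of 9, beside 16.4% up and 15.3% down, a share near the background. Between 800 and 400 nM C16, 0 members were called by limma, edgeR or DESeq2, beside 1.13% up and 3.95% down. In the last comparison 4 members had an unadjusted p under 0.05 by limma, and 3 (HMOX1, NQO1 and TXNRD1) an adjusted one, all lower at 800 nM. A two-sided exact permutation test of 3 libraries against 3 cannot go below p = 0.1, the value it gave HMOX1, NQO1, GCLM, GCLC, TXNRD1, SRXN1, OSGIN1 and KEAP1 for 400 nM against DMSO. The shares of all genes that passed a p limit alone, or reached this permutation p, were not counted. Nothing is therefore read from the counts of members by p alone.

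Levels of different genes were compared per kilobase of exon. With control siRNA TXNRD1 was highest at 284 ± 13.8 normalized counts per kilobase, followed by HMOX1 at 115 ± 14.0, NQO1 at 76.7 ± 2.25, KEAP1 at 68.2 ± 5.04, NFE2L2 at 64.6 ± 2.71 and SRXN1 at 51.8 ± 5.09. KEAP1 and NFE2L2 lay within their SDs of each other. The glutathione subunits followed, GCLC at 32.8 ± 3.49 and GCLM at 15.6 ± 1.29, with OSGIN1 last at 11.5 ± 1.05. With either PKR siRNA HMOX1 took the first place, at 296.5 ± 31.1 and 330 ± 20.6, ahead of TXNRD1 at 219 ± 8.32 and 292 ± 3.94.

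In the C16 table TXNRD1 was first in all 3 groups (194 ± 7.26, 223 ± 3.25 and 185 ± 13.9 normalized counts per kilobase with DMSO, 400 nM and 800 nM). HMOX1, at 54.2 ± 4.46 with DMSO, lay within 1 SD of NQO1 (61.7 ± 12.0), and its own SD covered the gap to NFE2L2 (52.3 ± 0.75), and it was second with C16, at 126.5 ± 5.72 and 92.7 ± 6.37. NQO1 went from second with DMSO to sixth at both doses (37.2 ± 2.63 and 27.9 ± 2.62). At 400 nM it could not be told from KEAP1 (38.6 ± 0.74). GCLC, GCLM and OSGIN1 kept the last 3 places, and at 800 nM GCLC (18.0 ± 3.02) and GCLM (17.4 ± 2.12) overlapped.

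The genes whose pattern over libraries was most like that of HMOX1 were not among the 9. Over the 5275 genes with a mean of at least 50 in both tables, ranked by the smaller of the Pearson correlations over the 9 libraries of each table, the first 5 were TGM2, HSPA5, P4HB, FOSL2 and SLC1A5. Their correlations were 0.93 to 0.99 over the siRNA libraries and 0.93 to 0.97 over those of C16, as a description over libraries that share their groups. TGM2, tissue transglutaminase, went from 65.4 ± 5.05 normalized counts with control siRNA to 126 ± 15.0 and 147 ± 0.96, and from 121 ± 4.04 with DMSO to 188 ± 6.72 at 400 nM and 154 ± 8.50 at 800 nM. HSPA5, the main chaperone of the endoplasmic reticulum, went from 1286 ± 45.5 to 1777 ± 152.5 and 1681 ± 56.9, and from 1015 ± 26.2 to 1556 ± 43.5 and 1485 ± 63.6. P4HB is a disulfide isomerase of the same compartment, FOSL2 an AP-1 subunit and SLC1A5 a glutamine transporter.

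Among the members, GCLM was most like HMOX1 over both tables (0.88 and 0.58, rank 166). NQO1 had 0.81 over the siRNA libraries and -0.68 over those of C16. GCLC had -0.09 and 0.81, SRXN1 0.06 and 0.62, and TXNRD1 -0.31 and 0.50. OSGIN1, under the minimum level for ranking, had 0.25 and 0.86. For the regulators the values were 0.26 and -0.36 (NFE2L2) and 0.70 and -0.26 (KEAP1).

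**Figure D3:**
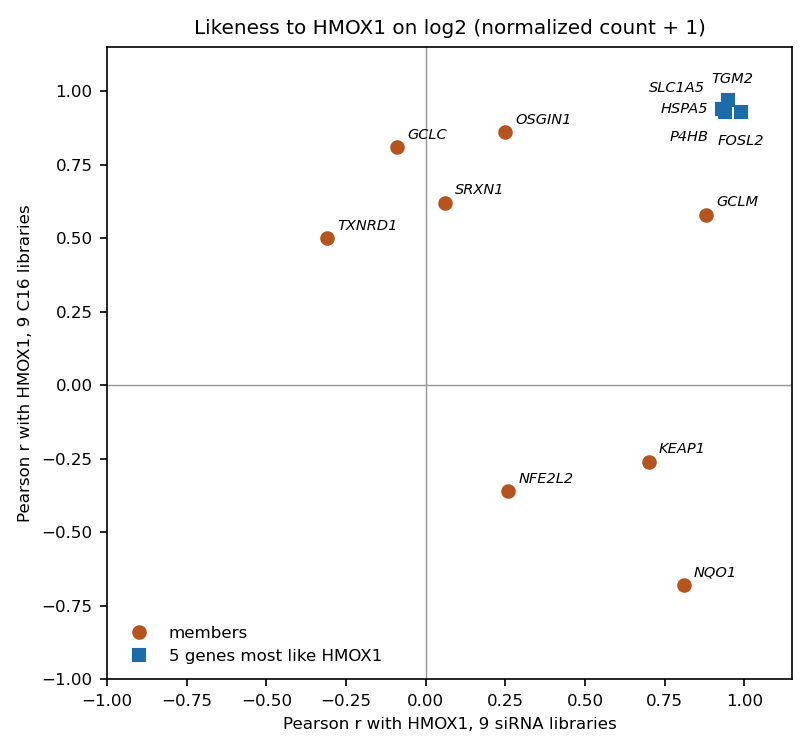
Pearson correlation with HMOX1 of log2 (normalized count + 1) over the 9 siRNA libraries (horizontal) and the 9 C16 libraries (vertical), for the 8 other members (circles) and the 5 genes most like HMOX1 (squares). The squares sit together at 0.93 or more on both axes, while the members spread over the plot, with NQO1 at 0.81 and -0.68.

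A wider list of 36 NRF2 targets beside the members was examined next. Of these, 11 were too low to be tested in the siRNA table. 8 of them had at most 2 reads in any of the 18 libraries, namely AKR1C1, AKR1C2, AKR1C3, AKR1B10, ALDH3A1, GPX2, NR0B1 and UGT1A6. The AKR1C genes are close copies of each other and UGT1A6 shares 56.2% of its exon bases with each of several UGT1A genes, so their low values are uncertain. With PKR siRNA 1, 7 of 25 targets rose and 4 fell (limma, median log2 fold change 0.23), with PKR siRNA 2, 6 rose and 5 fell (0.03), with 400 nM C16, 3 of 24 rose and 1 fell (-0.01), and with 800 nM, 2 rose and 4 fell (-0.18). The medians of all genes were -0.007, -0.011, 0.001 and 0.002 in the same order. The risen share was 28% and 24% of the tested targets with PKR siRNA 1 and PKR siRNA 2, where it was 8.53% and 10.8% of all genes, and 12.5% and 8.33% at 400 and 800 nM, where it was 7.08% and 11.6% of all genes. The fallen share was 16% and 20% for the siRNAs, beside 12.6% and 12.8%, and 4.17% and 16.7% for the doses, beside 5.45% and 14.1%. The difference from all genes was not tested. Targets were called in both directions in every treatment, but at 400 nM ABCC3 alone fell. At 800 nM both shares lay near those of all genes, so nothing particular to the targets is read from their directions with C16. Between the doses 2 targets fell from 400 to 800 nM, ABCC3 and GSTM3, or 1 without C16 800 nM replicate 3.

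Other targets were called with a single siRNA and are not described further. With PKR siRNA 1 alone TXN, TALDO1, FTL and SLC48A1 rose and IDH1 fell. With PKR siRNA 2 alone PRDX1 and ABCC2 rose and CBR1 fell, ABCC2 being tested only through that group. Several of the targets called in more comparisons moved apart between the siRNAs. ME1, a source of NADPH, averaged 72.4 ± 2.44 normalized counts (control siRNA), 122 ± 6.06 (PKR siRNA 1) and 24.1 ± 1.59 (PKR siRNA 2, log2 fold changes 0.74 and -1.55, adjusted p = 2.51e-05 and 9.51e-15 by limma). PIR, an iron-binding nuclear protein, rose with the first (0.86) and fell with the second (-0.87), but it shares 52.0% of its exon bases with a readthrough gene, and both calls were lost by DESeq2 (0.89 and -1.01) and with no minimum level, and the second with only its 2 groups fitted. By limma the first call was also lost without control siRNA replicate 3 (0.58) or PKR siRNA 1 replicate 1 (0.69), the second without control siRNA replicate 1 (-0.79) or 2 (-0.66) or PKR siRNA 2 replicate 3 (-0.83). EPHX1, microsomal epoxide hydrolase, fell with PKR siRNA 1 (-0.92) and rose with PKR siRNA 2 (0.75). UGDH, which makes UDP-glucuronic acid, rose with PKR siRNA 2 from 292 ± 12.2 to 957 ± 34.1 normalized counts (1.71, adjusted p = 2.21e-34 by limma) and fell with 800 nM C16 (-0.81), and the glutathione transferase GSTM3 did the same (1.42 and -1.04).

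SLC7A11, the cystine importer that feeds glutathione synthesis, rose with C16 and fell with PKR siRNA 2. It went from 43.7 ± 4.87 normalized counts with DMSO to 130 ± 28.5 at 400 nM and 107 ± 15.9 at 800 nM (log2 fold changes 1.54 and 1.27, adjusted p = 1.79e-13 and 4.56e-11 by limma), and averaged 86.7 ± 8.55 (control siRNA) and 51.8 ± 8.25 (PKR siRNA 2, -0.74, adjusted p = 6.83e-06 by limma). With PKR siRNA 1 its fold change of 0.23 missed the threshold. An antisense gene covers 2.9% of its exon bases.

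The targets that fell with more than 1 treatment were the exporters ABCC3 and ABCC1. ABCC3 fell with PKR siRNA 1 (-0.82), PKR siRNA 2 (-1.33), 400 nM C16 (-1.32) and 800 nM C16 (-2.31), and between the doses from 57.5 ± 2.81 to 28.5 ± 2.44 normalized counts (-0.99, adjusted p = 1.65e-06 by limma). ABCC1 fell with PKR siRNA 1 (-0.995) and 800 nM C16 (-0.64, or -0.55 and under the fold threshold without DMSO replicate 3), while its change with PKR siRNA 2 (-0.46) stayed under the fold threshold. The study itself picked ABCC1 and ABCC3 on these libraries, so their direction is not independent evidence. BLVRB, biliverdin reductase B, rose with both siRNAs (0.76 and 0.65), calls that were lost without control siRNA replicate 3 (0.57 and 0.47), and read -0.01 at 800 nM C16.

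**Figure D4:**
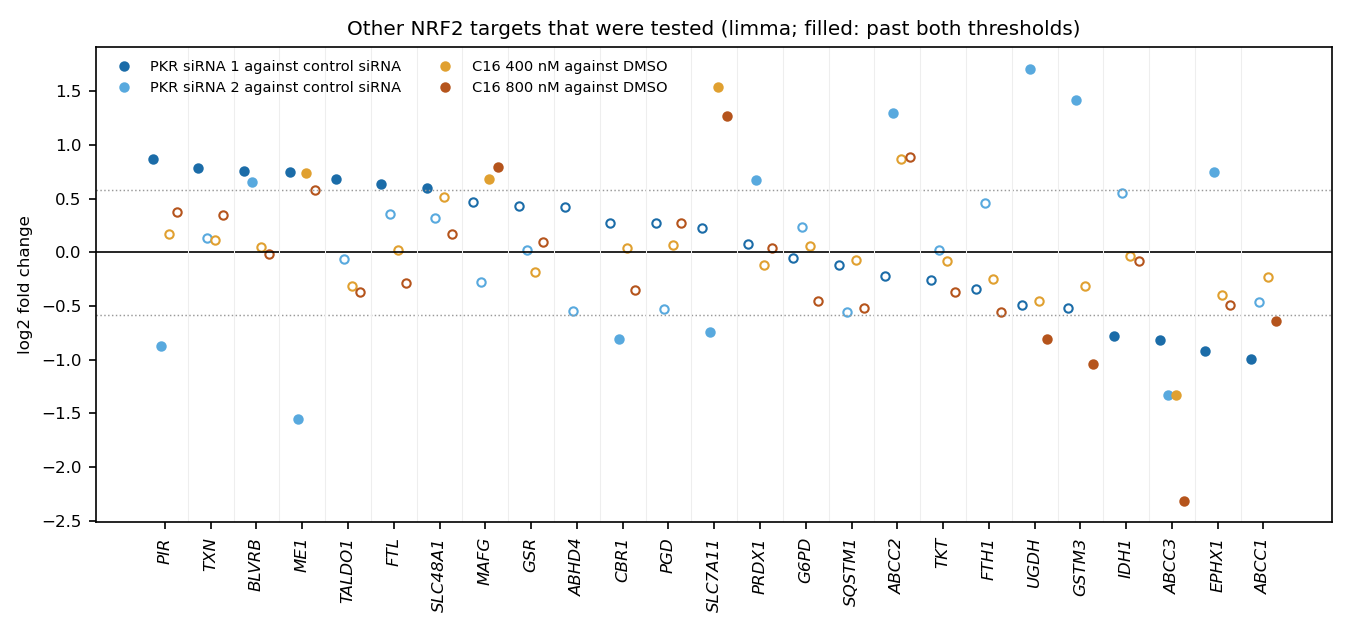
Log2 fold changes by limma of the tested genes of the wider NRF2 target list, ordered by PKR siRNA 1; filled points passed both thresholds and dotted lines mark a fold of 1.5. Filled points lie on both sides of 0 in each treatment, from ABCC3 at -2.31 (800 nM C16) to UGDH at 1.71 (PKR siRNA 2).

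Heme enzymes around HMOX1 were read next. HMOX2, the constitutive heme oxygenase, went from 130 ± 11.3 normalized counts to 201 ± 2.26 with PKR siRNA 1 (log2 fold change 0.63, adjusted p = 4.18e-07 by limma, or 0.57 and under the fold threshold without control siRNA replicate 2) and 121 ± 16.7 with PKR siRNA 2 (-0.11). It rose with C16 from 68.7 ± 3.80 to 119 ± 6.98 and 149 ± 14.2 (0.78 and 1.10, adjusted p = 4.06e-07 and 1.29e-11 by limma). The higher value was at 800 nM, where HMOX1 was below its 400 nM level. The difference of HMOX2 between the doses (0.32) missed the threshold (adjusted p = 0.0575 by limma). HMOX2 shares 5.1% of its exon bases with a gene on the other strand. BLVRA, the main biliverdin reductase, fell with both siRNAs (-0.61, lost without control siRNA replicate 3 at -0.54, and -0.86). PPOX, of heme synthesis, rose with PKR siRNA 2 (0.64), a call lost in 6 of 14 refits, and fell with 400 nM C16 (-1.15) and 800 nM C16 (-1.78). The 400 nM fall was not called by DESeq2, with no minimum level, or without C16 400 nM replicate 2 (-0.86). With C16, PPOX was near the minimum level and was tested only through the DMSO group, where it is high. Of the 15 genes of the heme list 3 rose and 2 fell with PKR siRNA 1, 2 rose and 1 fell with PKR siRNA 2, 2 rose and 2 fell with 400 nM C16, and 4 rose and 3 fell with 800 nM. These are 20% up and 13.3% down of the list, 13.3% and 6.67%, 13.3% and 13.3%, and 26.7% and 20%, where all genes had 8.53% and 12.6%, 10.8% and 12.8%, 7.08% and 5.45%, and 11.6% and 14.1%.

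Of the proteins that act with or against NRF2, BACH1, the repressor of HMOX1, went from 21.8 ± 3.28 normalized counts with DMSO to 39.1 ± 9.94 with 800 nM C16 (log2 fold change 0.79, adjusted p = 0.0030 by limma) and passed no threshold at 400 nM (0.19) or with the siRNAs (0.16 and -0.28). MAFG, itself a target, rose with both doses (0.68 and 0.80) and its changes with the siRNAs were 0.47 and -0.28, folds under 1.5. MAFK fell with PKR siRNA 1 from 379 ± 16.2 to 142 ± 15.6 (-1.41, adjusted p = 5.09e-25 by limma), although 24.1% of its exon bases lie opposite another gene and are uncertain if counting ignored strand. MAFF fell with PKR siRNA 2 (-1.32) and rose with 800 nM C16 (1.37). CUL3, the scaffold of the KEAP1 ligase, had log2 fold changes of -0.24 and -0.21 for the siRNAs and -0.52 and -0.30 at 400 and 800 nM, folds under 1.5, and NFE2L3, a relative of NRF2, rose with PKR siRNA 1 (1.23) and fell with 800 nM C16 (-0.66, or -0.48 and not called without its replicate 1). Of the 16 genes of the NRF2 regulator list 2 rose and 1 fell with PKR siRNA 1, 1 fell with PKR siRNA 2, 1 rose with 400 nM C16, and 3 rose and 1 fell with 800 nM. The shares were 12.5% up and 6.25% down with PKR siRNA 1 (all genes 8.53% and 12.6%), 6.25% down with PKR siRNA 2 (12.8%), 6.25% up at 400 nM (7.08%), and 18.8% up and 6.25% down at 800 nM (11.6% and 14.1%), near or under those of all genes but for the 18.8%.

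The other regulators of HMOX1 were a list of 14 genes. Of 12 tested, 5 rose with 400 nM and 6 rose and 1 fell with 800 nM (limma, medians 0.55 and 0.45), while 3 rose and 2 fell with PKR siRNA 1 and 2 rose and 3 fell with PKR siRNA 2. The risen share was 41.7% and 50% at the doses, where it was 7.08% and 11.6% of all genes, and 25% and 16.7% for the siRNAs, beside 8.53% and 10.8%. The difference was not tested, and the list was chosen with results known. MAFF, MAFG, MAFK and BACH1 are counted in this list too. ATF4, a stress-response activator, went from 292 ± 46.8 normalized counts to 649 ± 55.4 and 510.5 ± 23.4 with the siRNAs (log2 fold changes 1.16 and 0.82, adjusted p = 2.22e-23 and 6.47e-16 by limma), rose with 400 nM C16 (0.70) and read 0.16 at 800 nM, where it missed the threshold. FOSL2 rose in all 4 comparisons (0.64 and 0.65 for the siRNAs, 1.41 at 400 nM and 1.28 at 800 nM), the siRNA calls being lost without control siRNA replicate 2 (0.55 and 0.57). The study picked FOSL2 on these libraries too. HSF1 fell with PKR siRNA 1 (-1.04, adjusted p = 2.33e-13 by limma) and was not called with PKR siRNA 2 (0.39) or at 400 and 800 nM (0.08 and -0.07). HIF1A, with 27.8% of its exon bases opposite another gene, was not called with the siRNAs (0.03 and 0.05) or the doses (0.06 and 0.07). JUND, another AP-1 subunit, fell with 800 nM C16 (-0.82, adjusted p = 0.000399 by limma). JUN fell with PKR siRNA 2 (-1.09) and rose with both doses (1.20 and 1.01), and FOSL1 rose with PKR siRNA 1 (0.71), fell with PKR siRNA 2 (-1.11) and rose with both doses (0.63 and 0.64, under the fold threshold at 400 nM without DMSO replicate 1 or 2, at 0.58 each, and at 800 nM without its replicate 3, at 0.58).

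Of the remaining glutathione genes, 15 were tested with the siRNAs. Of these, 2 rose with PKR siRNA 1, and 1 rose and 3 fell with PKR siRNA 2. Of 14 tested with C16, 3 rose and 2 fell at 400 nM and 4 rose and 2 fell at 800 nM. The shares were 13.3% up with PKR siRNA 1 (all genes 8.53%), 6.67% up and 20% down for PKR siRNA 2 (10.8% and 12.8%), 21.4% up and 14.3% down at 400 nM (7.08% and 5.45%), and 28.6% up and 14.3% down at 800 nM (11.6% and 14.1%). CHAC1, which breaks glutathione down, rose with PKR siRNA 1 (0.93) and with C16, from 21.9 ± 1.21 normalized counts to 55.8 ± 5.05 at 400 nM and 34.1 ± 2.18 at 800 nM (log2 fold changes 1.31 and 0.61, adjusted p = 2.81e-07 and 0.0078 by limma). The 800 nM call was lost by DESeq2 (0.64), with a pseudocount of 5 (0.54), and without DMSO replicate 3 (0.57) or C16 800 nM replicate 2 (0.56). GGCT, also of the glutathione list, fell with PKR siRNA 2 (-1.09) and rose with 800 nM C16 (1.16). GPX4, which reduces lipid peroxides with glutathione, rose with PKR siRNA 2 (0.84) and fell with both doses (-0.89 and -0.85).

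Of the thioredoxin list 4 of 16 rose with PKR siRNA 1, 3 rose and 6 fell with PKR siRNA 2, 1 of 15 rose and 2 fell with 400 nM C16, and 1 rose and 3 fell with 800 nM. The shares were 25% up with PKR siRNA 1 (all genes 8.53%), 18.8% up and 37.5% down for PKR siRNA 2 (10.8% and 12.8%), 6.67% up and 13.3% down at 400 nM (7.08% and 5.45%), and 6.67% up and 20% down at 800 nM (11.6% and 14.1%). SESN2, a stress-induced partner of the peroxiredoxins, rose with PKR siRNA 1 (0.95), 400 nM C16 (1.32) and 800 nM C16 (1.05) and fell with PKR siRNA 2 (-0.61), the last call being lost without control siRNA replicate 3 (-0.53) or PKR siRNA 2 replicate 3 (-0.49). PRDX3, the mitochondrial peroxiredoxin, rose with both siRNAs (0.63 and 0.66, the first under the fold threshold without PKR siRNA 1 replicate 1, at 0.58). TXNIP, which binds and inhibits thioredoxin, rose with PKR siRNA 2 from 4.31 ± 2.01 to 29.0 ± 6.92 normalized counts (2.53, adjusted p = 6.04e-09 by limma). With PKR siRNA 1 it averaged 8.34 ± 1.85. TXNIP was thus tested with either siRNA only through the PKR siRNA 2 group, where it is high. Its rise with PKR siRNA 1 (0.86) was lost by edgeR (0.90) and DESeq2 (0.93), with a pseudocount of 5 (0.53), with no minimum level, with only its 2 groups fitted, and when control siRNA replicate 1 (0.70) or 2 (0.72) or PKR siRNA 1 replicate 1 (0.73) or 3 (0.82) was left out.

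PRDX2, the cytosolic peroxiredoxin, fell with PKR siRNA 2 (-0.84), 400 nM C16 (-0.69) and 800 nM C16 (-0.89), MSRB1, a methionine sulfoxide reductase, with the same 3 (-0.59, -0.82 and -1.41), and TXNRD2, the mitochondrial thioredoxin reductase, with PKR siRNA 2 (-0.75) and 800 nM C16 (-0.72). At 400 nM the calls of PRDX2 and MSRB1 were each lost by DESeq2 (-0.75 and -0.82) and without any of 4 libraries (-0.59 to -0.66 and -0.65 to -0.76), that of MSRB1 also with no minimum level. The MSRB1 call with PKR siRNA 2 was lost by DESeq2 (-0.59), with a pseudocount of 5 (-0.53), under median-of-ratios rescaling (-0.58) and without any of 3 (-0.47 to -0.54). The TXNRD2 call at 800 nM was lost by DESeq2 (-0.74) and without any of 3 (-0.54 to -0.66). Of the 7 tested genes that make or remove reactive oxygen, 1 rose with each siRNA, PRDX3 in both, 2 fell with 400 nM C16 and 3 fell with 800 nM. These are 14.3% up with either siRNA, beside 8.53% and 10.8% of all genes, and 28.6% and 42.9% down at the doses, beside 5.45% and 14.1%, shares that rest on 7 genes.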

How the data were processed

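RNA of 18 PANC-1 libraries was sequenced. By the authors, reads were aligned to hg38 (TopHat), assigned to genes (featureCounts) and scaled by TMM (TCC) in 2 separate tables, and the deposited values are this normalized signal per gene. Versions, annotation and strand setting are not given in the sources used here. Dividing by the step of each column gave back whole reads, although in 2 columns (replicate 1 of PKR siRNA 2 and of 800 nM C16) the step is so near 1 that it is hard to tell from rounding.

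For each table, log2 (value + 1) of genes with a mean of at least 10 was fitted over its 9 libraries with limma 3.58.1 (eBayes with a trend, two-sided, Benjamini-Hochberg) in R 4.3.3, tested on simulated data. A call needs an adjusted p under 0.05 and a fold over 1.5. TCC was not used here. Alternatives were edgeR 4.0.16 and DESeq2 1.42.0 on the reads, pseudocounts of 0.5 and 5, no minimum or one of 30, median-of-ratios rescaling, 2 groups alone, a replicate block and leaving out each library. All 18 pairs of replicates differed by more than sampling noise (chi-square per degree of freedom 1.03 to 1.68).

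The members, the 7 lists (112 genes) and the tests were chosen with earlier results of these data known. Beside the members and EIF2AK2, named were list genes called in at least 2 of the comparisons of PKR siRNA 1, PKR siRNA 2 and 800 nM C16 with their controls, in any case BACH1, MAFF, MAFG, MAFK, CUL3 and HMOX2, and the 5 genes most like HMOX1. Other names were chosen after their values were seen.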

Additional observations from a re-analysis of the deposited data

Results flagged for a closer look

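The members were flagged whose effects differed between the siRNAs or between the doses by the test of the difference itself (limma, adjusted over all genes, 3 libraries a group). Between PKR siRNA 2 and PKR siRNA 1 the log2 differences were -1.45 for SRXN1 (adjusted p = 1.07e-19), -0.60 for NFE2L2 (1.98e-09), -0.46 for GCLC (0.000198), 0.44 for NQO1 (2.86e-06) and 0.41 for TXNRD1 (4.04e-11), so that 3 of these 5 were lower and 2 higher with PKR siRNA 2. For SRXN1, NFE2L2, GCLC, NQO1 and TXNRD1 the libraries of the siRNAs did not overlap, 3 against 3. Between 800 and 400 nM C16 the differences were -0.45 for HMOX1 (adjusted p = 0.0025), -0.41 for NQO1 (0.020) and -0.27 for TXNRD1 (0.0021), again without overlap. Of all genes, 16.4% were called up and 15.3% down between the siRNAs, and 1.13% and 3.95% between the doses. How many of all genes differed by adjusted p alone or did not overlap was not counted. Nothing particular to the members is therefore read from these counts. HMOX1 moved toward its DMSO level at the higher dose and NQO1 away from it. Groups of 3 are too small to look for a library that stands apart.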

How the results depend on the processing

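The 9 members were refitted under the other settings in 804 results, of which 774 kept their direction and side of the thresholds, 11 passed newly, 3 no longer passed and 16 changed sign. All sign changes concerned values with no call, and the cause was not tested. Leaving out 1 library gave ranges from -0.37 to 0.22 (OSGIN1, PKR siRNA 1), -0.0028 to 0.0614 (TXNRD1, PKR siRNA 2), -0.27 to 0.0661 (KEAP1, 800 nM), and, between the siRNAs, -0.0867 to 0.11 (GCLM) and -0.16 to 0.0243 (KEAP1). Between the doses they were -0.30 to 0.26 (OSGIN1), -0.18 to 0.0447 (GCLC), -0.0474 to 0.14 (SRXN1) and -0.20 to 0.14 (KEAP1). Under median-of-ratios rescaling the value for OSGIN1, C16 800 nM against C16 400 nM, was 0.0107. Members called ranged from 2 to 4 for PKR siRNA 2 (4 without its replicate 1) and from 1 to 2 between the siRNAs (1 without PKR siRNA 2 replicate 3), and targets called between the doses from 1 to 2 (1 without C16 800 nM replicate 3). edgeR and DESeq2 called 3 members rather than 2 for PKR siRNA 2, GCLM being added. The list genes named by the rule above, refitted after their values were seen, kept 1414 of 1490 calls, and 76 of their 101 results kept the call in every refit. Refits in which a gene fell under the minimum level are left out of the counts of refits, for list genes and members alike. PPOX at 800 nM C16 was thus tested in only 11 refits.

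Same-numbered libraries did not deviate together (correlations -0.07 to 0.08 in the siRNA table and -0.08 to 0.06 in the C16 table). That gives no sign of a pairing by number, but with 3 libraries a group it cannot exclude one. A replicate block left the members called at 2, 2, 2, 3, 4 and 0 in the 6 comparisons, the same counts as without it. Genes with few reads, such as OSGIN1 with 7 in each DMSO library, are imprecise at this depth.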
